A study of Mus musculus with 4 samples.

Results

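The levels of 8 genes of steroid hormone signalling were followed in the prostates of C57BL/6 and TRAMP mice with Agilent arrays of the 1-colour kind, labelled with Cy3. The genes are the receptors Esr1, Esr2, Pgr and Nr3c1, the 5 alpha-reductases Srd5a1 and Srd5a2, and the receptor-induced genes Fkbp5 and Tsc22d3. They were found by gene name among the non-control probes, which gave 18 probes for 8 of 28090 genes. TRAMP mice express SV40 early genes from the rat probasin promoter, which is active in prostate epithelium, and the labels do not give their background strain. The 4 groups were C57BL/6 after olive oil, C57BL/6 after TmT, TRAMP after olive oil and TRAMP after TmT. TmT is a tocopherol mixture rich in gamma-tocopherol, a form of vitamin E, and was given by gavage at 600 mg/kg. All mice were males of 8 weeks on an AIN-76A diet, were fasted overnight, and were killed 12 hours after the gavage. Each group had 3 mice but 1 array, and whether each array carried pooled or individual RNA is not in the labels. The comparison of genotypes asks how the TRAMP prostate differed from the normal one, and that of TmT with oil asks what the tocopherol mixture changed within 12 hours.

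Steroid receptors are transcription factors held in chaperone complexes until a hormone binds them, after which they enter or act in the nucleus and bind short DNA half-sites as dimers. In the prostate, testosterone is turned by 5 alpha-reductases into the more potent dihydrotestosterone, while estrogen receptors alpha and beta (Esr1, Esr2) are known mainly from stroma and epithelium, respectively. The glucocorticoid receptor (Nr3c1) is expressed in most cell types. Fkbp5 encodes a cochaperone of these receptors that is itself induced by glucocorticoids, progestins and androgens, and Tsc22d3 encodes GILZ, a leucine zipper protein induced by glucocorticoids.

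Levels are log2 of the processed intensity minus log2 of the array's 75th percentile, so 0 is a probe as bright as that percentile. Brightness depends on the probe as well as on the RNA, so a level is compared only between arrays and never between genes. A gene with several probes is represented by its brightest, and ± marks the scanner software's error. That error covers the reading of the spots, not the difference between mice. For a probe printed several times the spot errors were combined as if independent. Its ± is therefore smaller than that of a similarly bright probe printed once. With 1 array a group there was no replicate check, so no p-value is given between arrays. In such tissue RNA, fewer cells of a type and less RNA per cell cannot be told apart.

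The arrays had 63.9% to 74.1% of their spots well above background, and the 75th percentiles of their signal ran from 71.3 on TRAMP after TmT to 161 on C57BL/6 after oil. The tissue label was checked against 12 luminal epithelial markers, of which 11 or 12 were above background on each array. The arrays also held signal of tissue other than prostate epithelium: 10 of 10 skeletal muscle markers and 7 of 7 seminal vesicle markers were above background on each. Adipocyte markers had a mean level of 1.83 on TRAMP after oil against -0.24, -0.44 and -0.58 on C57BL/6 after oil, C57BL/6 after TmT and TRAMP after TmT. Of 12 adipocyte markers measured, 10 were at least 2-fold higher in TRAMP than in C57BL/6 after oil. The mean level of 14 cell cycle genes was -0.60 in C57BL/6 given oil, -1.30 in C57BL/6 given TmT, 1.77 in TRAMP given oil and 1.05 in TRAMP given TmT. The cell cycle mean of C57BL/6 given TmT includes values not above background, as 12 of the 14 were above it. The adipocyte means do so on each array, with 10 to 12 of 13 markers above it.

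The probes behind 3 of the genes are shown because the results turn on them. They are 60 bases each, as the scanner files give them, with mm9 coordinates of the probes. The Pgr probe lies at chr9:8961434-8961493 on the plus strand and is the probe behind the bounds given for that gene. The Srd5a2 probe covers chr17:74367066-74370736 on the minus strand, a span of 3671 bases for a sequence of 60, so it crosses a splice junction. The Fkbp5 probe at chr17:28574995-28575054, on the minus strand, carries the largest measured genotype difference among the 8 genes. No part of these sequences is marked, so all letters are in lower case.
Pgr: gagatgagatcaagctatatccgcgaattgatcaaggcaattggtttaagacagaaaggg
Srd5a2: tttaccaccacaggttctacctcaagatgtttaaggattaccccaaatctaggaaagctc
Fkbp5: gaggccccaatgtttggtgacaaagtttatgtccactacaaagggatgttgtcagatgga

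Promoter windows were taken from RefSeq (GRCm38.p6), each 250 bases before to 50 bases after a gene start. The chromosome that holds Nr3c1 was left out of the search, so that gene had no window. Matched by symbol, the other 7 of the 8 genes gave 10 windows. They were searched on both strands for AGAACA, the half-site bound by the glucocorticoid and progesterone receptors, and for AGGTCA, the half-site bound by the estrogen receptors. The first was present in 1 of the 10 windows and in 19.0% of all 32851 windows searched. The second was in none of the 10 and in 16.3% of all those searched. The match was in a Tsc22d3 window and is shown on its gene's strand as 66 bases, chrX:140600672-140600737 of the minus strand, with the half-site (here as its reverse complement, TGTTCT) in capitals. It begins at position -185 from the gene start. A match is a description of letters and says nothing of binding.
Tsc22d3: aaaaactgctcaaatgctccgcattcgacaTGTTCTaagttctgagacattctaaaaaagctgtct

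Esr1 encodes estrogen receptor alpha, and its brightest probe (chr10:5343056-5343115, mm9) was printed 10 times on each array. Its level was 1.89 in C57BL/6 given oil, 1.35 in C57BL/6 given TmT, 1.89 in TRAMP given oil and 2.00 in TRAMP given TmT. The array of C57BL/6 after TmT was the low one, and the other arrays in the order of levels differed from their neighbours by no more than 2 scanner errors. The spots of an array agreed closely, with SDs of 0.07, 0.09, 0.12 and 0.17 over 9 or 10 spots. The highest spot of C57BL/6 after TmT, at 1.50, lay below the lowest spot of any other array, at 1.67. These spots share 1 labelled RNA, so their spread is technical. A second Esr1 probe was above background on the arrays of both lines after oil only, at -4.15 in C57BL/6 and -3.52 in TRAMP.

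Esr2 encodes estrogen receptor beta and was dim on every array. Its probe (chr12:77222311-77222370), also printed 10 times, read -4.54 in C57BL/6 given oil, -3.82 in C57BL/6 given TmT, -4.45 in TRAMP given oil and -5.42 in TRAMP given TmT. Of the spots used, 7 of 9, 8 of 9, 6 of 9 and 0 of 8 were well above background, so the last value is not a measured level. C57BL/6 after TmT was the high array, but its spots, from -4.16 to -3.18, overlapped those of C57BL/6 after oil, from -5.18 to -4.06.

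**Figure D1:**
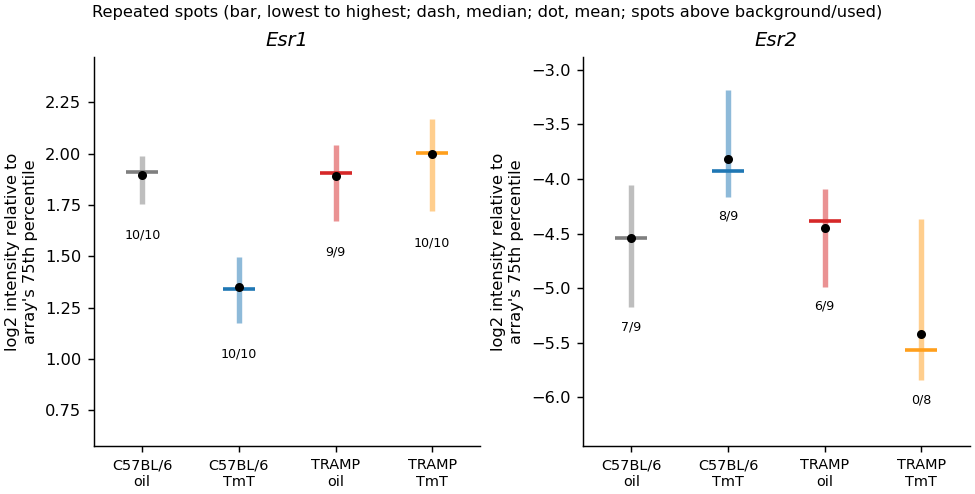
Spots of the Esr1 and Esr2 probes on the 4 arrays, as log2 intensity relative to the array's 75th percentile. Bars run from the lowest to the highest spot, dashes are medians, dots are means, and the numbers are spots well above background over spots used. The Esr1 bar of C57BL/6 after TmT ends at 1.50, below the bars of the other arrays, whereas its Esr2 bar overlaps those of both oil arrays.

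Pgr encodes the progesterone receptor, a classic estrogen receptor target. Its probe read -2.25 ± 0.16 in C57BL/6 given TmT and -3.53 ± 0.20 in TRAMP given oil. In C57BL/6 given oil (-5.41) and in TRAMP given TmT (-5.84) it was not well above background. Where 1 side was not above background, a lower bound on the fold was taken. It compares the brighter level with whichever is higher on the dim array, the probe itself or the dimmest probe called well above background there. The bound is nominal, because it subtracts no scanner error. Also, a probe brighter than that dimmest one can still be called not above background, as seen on C57BL/6 after TmT. By this nominal bound Pgr was at least 6.00-fold higher after TmT than after oil in C57BL/6. On the same basis it was at least 2.47-fold higher in TRAMP than in C57BL/6 after oil. After TmT it was at least 2.42-fold lower in TRAMP than in C57BL/6. For TmT against oil in TRAMP no bound could be given, because the dimmest well-measured probe of the TRAMP TmT array, at -3.53, was as high as the Pgr level of TRAMP after oil. Each Pgr value rests on 1 spot, and a second probe 13269 bases away was above background on no array.

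Nr3c1 encodes the glucocorticoid receptor. Its brightest probe (chr18:39570619-39570678) read 2.01, 1.40, 2.15 and 1.78 on C57BL/6 after oil, C57BL/6 after TmT, TRAMP after oil and TRAMP after TmT, each ± 0.14. No neighbours in this order of levels differed by more than 2 scanner errors, while the array of C57BL/6 after TmT was 0.61 ± 0.20 below that of C57BL/6 after oil. The other 3 probes, within 3564 bases of the first, did not share this difference, with values of -0.04, 1.22 and 0.18 for the same pair. For TRAMP against C57BL/6 after oil the 4 probes gave 0.13, 0.33, 1.51 and -0.53. The probes of Nr3c1 thus disagreed by more than their errors of about 0.20 to 0.21, and no single value describes the gene.

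The 5 alpha-reductases differed by less than 2-fold in each comparison. Srd5a1, the type 1 enzyme, read -1.19 ± 0.15 in C57BL/6 given oil, -0.53 ± 0.15 in C57BL/6 given TmT, -0.58 ± 0.15 in TRAMP given oil and -0.41 ± 0.15 in TRAMP given TmT (chr13:69712376-69712435). Only C57BL/6 after oil stood apart from its neighbour, as the low array. A second Srd5a1 probe was above background on no array. Srd5a2, the type 2 enzyme, read 0.07, 0.22, -0.34 and 0.23 in the same order, each ± 0.14 or 0.15. Ordered by level, no neighbours differed by more than 2 errors, the lowest, TRAMP given oil, lying 0.41 ± 0.20 below the next. Its only probe was above background on all 4 arrays.

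Fkbp5 had the widest range, 1.95 log2 units, of the 6 genes above background on all 4 arrays. Its brightest probe read -0.18 ± 0.14 in C57BL/6 given oil, -0.29 ± 0.15 in C57BL/6 given TmT, 1.66 ± 0.14 in TRAMP given oil and 0.97 ± 0.14 in TRAMP given TmT. Both TRAMP arrays lay above both C57BL/6 arrays, TRAMP after oil lay above TRAMP after TmT, and the C57BL/6 arrays did not differ beyond their error by this probe. The 2 other probes lie 37402 and 38117 bases away at lower coordinates. The nearer one read -0.56, -1.13, 0.24 and -0.38 and the farther one -0.17, -1.05, 0.38 and -0.28, in the order C57BL/6 after oil, C57BL/6 after TmT, TRAMP after oil and TRAMP after TmT. All 3 probes were higher in TRAMP within each treatment, by 1.84, 0.79 and 0.55 after oil and by 1.26, 0.74 and 0.77 after TmT, listed from the brightest to the farthest. Only the brightest passed 2-fold. Between TmT and oil in C57BL/6 the other 2 probes differed by more than 2 errors (-0.57 ± 0.21 and -0.88 ± 0.21), unlike the brightest (-0.11 ± 0.21).

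The 3 probes of Tsc22d3 differed in how level they were between arrays. The brightest (chrX:137074393-137074452) read 3.65, 3.66, 3.90 and 3.76 on C57BL/6 after oil, C57BL/6 after TmT, TRAMP after oil and TRAMP after TmT, each ± 0.14. By this probe no array stood apart from its neighbour. The second probe, 126 bases away, was 0.82 ± 0.20 higher in TRAMP than in C57BL/6 after oil and 0.70 ± 0.20 higher after TmT than after oil in C57BL/6, against 0.25 and 0.01 for the brightest. The third, 558 bases away, gave 0.32 ± 0.20 and 0.23 ± 0.20 for these pairs. For TmT against oil in TRAMP these other probes gave -0.41 ± 0.20 and -0.54 ± 0.20, against -0.14 for the brightest. For TRAMP against C57BL/6 after TmT they gave -0.29 ± 0.20 and -0.45 ± 0.20, opposite in sign to the 0.10 of the brightest.

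**Figure D2:**
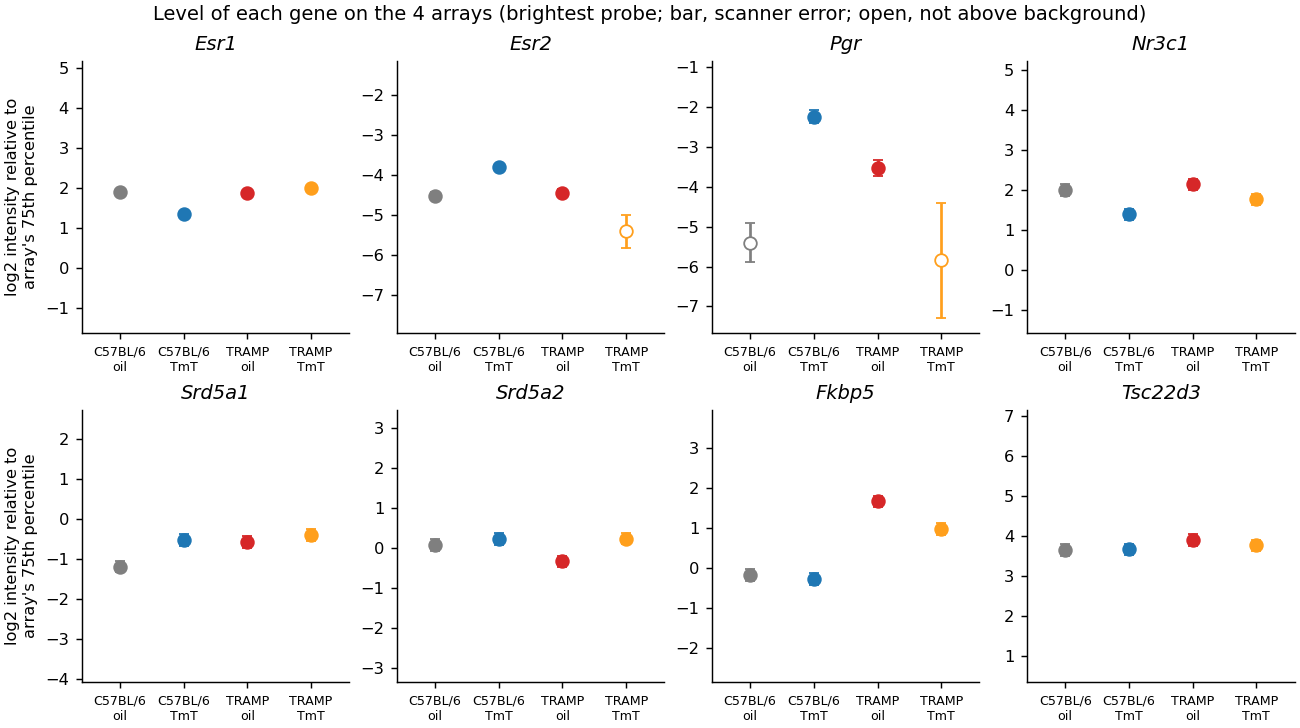
Level of the 8 genes on the 4 arrays as log2 intensity relative to the array's 75th percentile, from the brightest probe of each gene, with the scanner error as bars and open circles for values not above background. All panels span the same number of log2 units. Fkbp5 is higher on both TRAMP arrays, Pgr is above background on 2 arrays, and Tsc22d3 runs only from 3.65 to 3.90.

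**Figure D3:**
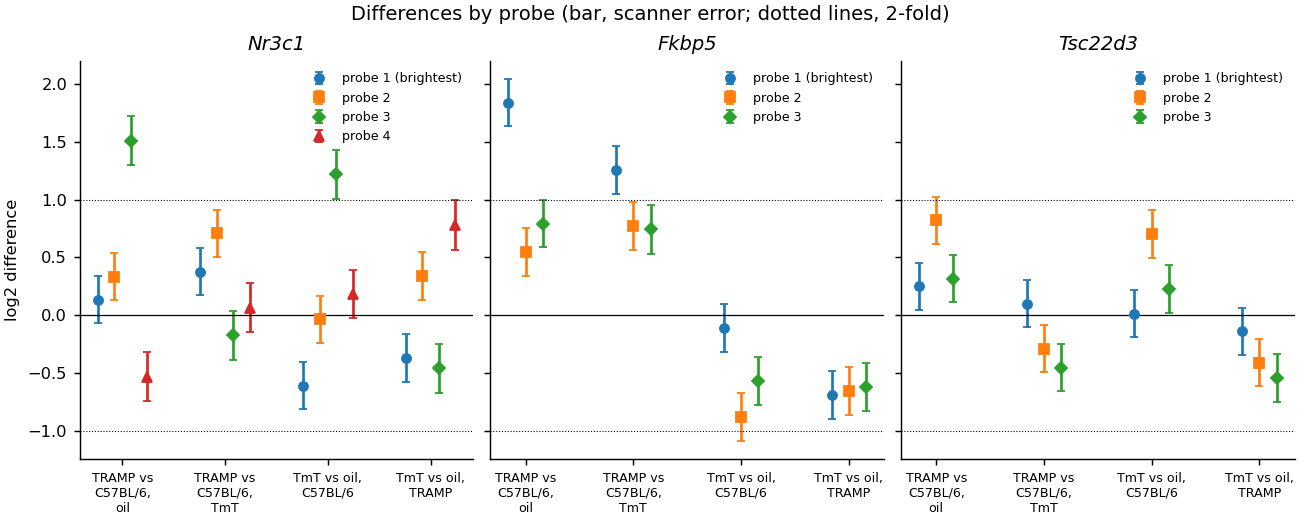
Log2 differences of Nr3c1, Fkbp5 and Tsc22d3 in the 4 comparisons, by probe, with the scanner error as bars and dotted lines at 2-fold. The Fkbp5 probes share their direction in all comparisons, whereas the Nr3c1 probes lie on both sides of 0 in each comparison.

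TRAMP and C57BL/6 prostates after oil differed in Fkbp5, which was 3.58-fold higher in TRAMP (1.84 ± 0.20). Pgr was above background in TRAMP only. Srd5a1 was 0.61 ± 0.21 higher, while Srd5a2 (-0.41 ± 0.20), Esr1 (-0.01 ± 0.07) and Esr2 (0.09 ± 0.15) differed by less than 2 errors. So did Nr3c1 (0.13 ± 0.20) and Tsc22d3 (0.25 ± 0.20) by their brightest probes. Their other probes gave 0.33, 1.51 and -0.53 for Nr3c1 and 0.82 and 0.32 for Tsc22d3. By brightest probe, 1 of the 7 genes measured on both arrays was at least 2-fold higher and 0 lower. Among all 18900 genes measured, 7.74% were at least 2-fold higher and 7.84% lower, 15.6% in all, so 1 in 7 is near the background. The median difference was 0.13 over the 7 genes and -0.07 over all genes. A difference larger than that of Fkbp5, in either direction, was found in 3.42% of genes. With the mean of all its probes in place of the brightest, the Fkbp5 difference was 1.06. The cell cycle genes moved in the same comparison, 12 of 14 being at least 2-fold higher (median 2.49), and so did the adipocyte markers, with a median of 2.32. Their part in the Fkbp5 and Pgr differences was not tested.

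After TmT, Fkbp5 was again higher in TRAMP than in C57BL/6, by 1.26 ± 0.21 or 2.39-fold. Esr1 was 0.65 ± 0.06 higher, a value that ran from 0.17 to 0.70 over the settings other than the planned normexp correction. Pgr and Esr2 were above background in C57BL/6 only. Esr2 was given no fold or direction. Its C57BL/6 level of -3.82 lay below the dimmest well-measured probe of the TRAMP TmT array, at -3.53. Nr3c1 (0.38 ± 0.20), Srd5a1 (0.12 ± 0.21), Srd5a2 (0.01 ± 0.21) and Tsc22d3 (0.10 ± 0.20) differed by less than 2 errors by their brightest probes. The other probes gave 0.71, -0.17 and 0.07 for Nr3c1 and -0.29 and -0.45 for Tsc22d3. Of 6 genes measured on both arrays, 1 was at least 2-fold higher and 0 lower (median 0.25). Of all 17292 genes, 8.41% were higher and 6.11% lower (14.5% in all), that is 1454 and 1057 genes, with a median of 0.01. Centred on the array medians instead, the split was 1191 higher and 1369 lower. Fkbp5 fell short of 2-fold with the mean of its 3 probes (0.92). The same held with normexp background correction on each array's median background (0.88). Adipocyte markers had a median of -0.27 here, near that of all genes, with 1 of 10 at least 2-fold higher and 1 lower. The median of the cell cycle genes was 2.14, with 11 of 12 at least 2-fold higher.

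TmT against oil in C57BL/6 prostates gave no 2-fold difference, by brightest probe, among the 7 genes measured on both arrays. In all, 5.78% of 18719 genes were at least 2-fold different, 3.15% higher and 2.63% lower. Pgr, above background after TmT only, had the nominal bound of at least 6.00-fold. Esr1 was 0.55 ± 0.06 lower after TmT, Nr3c1 0.61 ± 0.20 lower by its brightest probe, Esr2 0.72 ± 0.14 higher and Srd5a1 0.66 ± 0.21 higher. Srd5a2 (0.15 ± 0.20) and, by their brightest probes, Fkbp5 (-0.11 ± 0.21) and Tsc22d3 (0.01 ± 0.20) differed by less than 2 errors. The other Fkbp5 probes were lower after TmT, by -0.57 ± 0.21 for the nearer and -0.88 ± 0.21 for the farther one. The second Tsc22d3 probe was 0.70 ± 0.20 higher. The other Nr3c1 probes gave -0.04, 1.22 and 0.18, of which 1.22 is past 2-fold. Larger differences, in either direction, were found in 23.4% of genes for Esr1, 13.5% for Esr2, 19.1% for Nr3c1 and 16.5% for Srd5a1. The median over the 7 genes was 0.01 and that over all genes 0.02. The Esr1 value kept its direction under the alternatives other than the planned normexp correction, from -0.56 to -0.46. That of Nr3c1 became 0.19 and that of Srd5a1 -0.30 with the mean of all probes, the latter including the probe not above background.

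In TRAMP prostates, Fkbp5 was by its brightest probe 0.69 ± 0.20 lower after TmT than after oil, and Srd5a2 was 0.57 ± 0.21 higher. The 3 Fkbp5 probes gave -0.69, -0.62 and -0.66 from the brightest to the farthest, and 2 of them were also lower after TmT in C57BL/6. Esr1 (0.11 ± 0.07), Nr3c1 (-0.37 ± 0.20), Srd5a1 (0.17 ± 0.21) and Tsc22d3 (-0.14 ± 0.20) differed by less than 2 errors by their brightest probes. The other probes gave 0.34, -0.46 and 0.78 for Nr3c1 and -0.41 and -0.54 for Tsc22d3. Esr2 and Pgr were above background after oil only and were given no fold. None of the 6 genes measured on both arrays was 2-fold different, while 13.5% of 17428 genes were, 8.67% higher and 4.86% lower. The median over the 6 genes was -0.02 and that over all genes 0.10. In the same comparison 8 of 10 adipocyte markers were at least 2-fold lower (median -2.10), and 6 of 11 fibroblast markers at least 2-fold higher, with a median of 1.01. The cell cycle genes had a median of -0.70. Their part in the differences of Fkbp5 and Srd5a2 was not tested. The comparisons share arrays with one another, so a reading error on 1 array enters 2 of them.

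**Figure D4:**
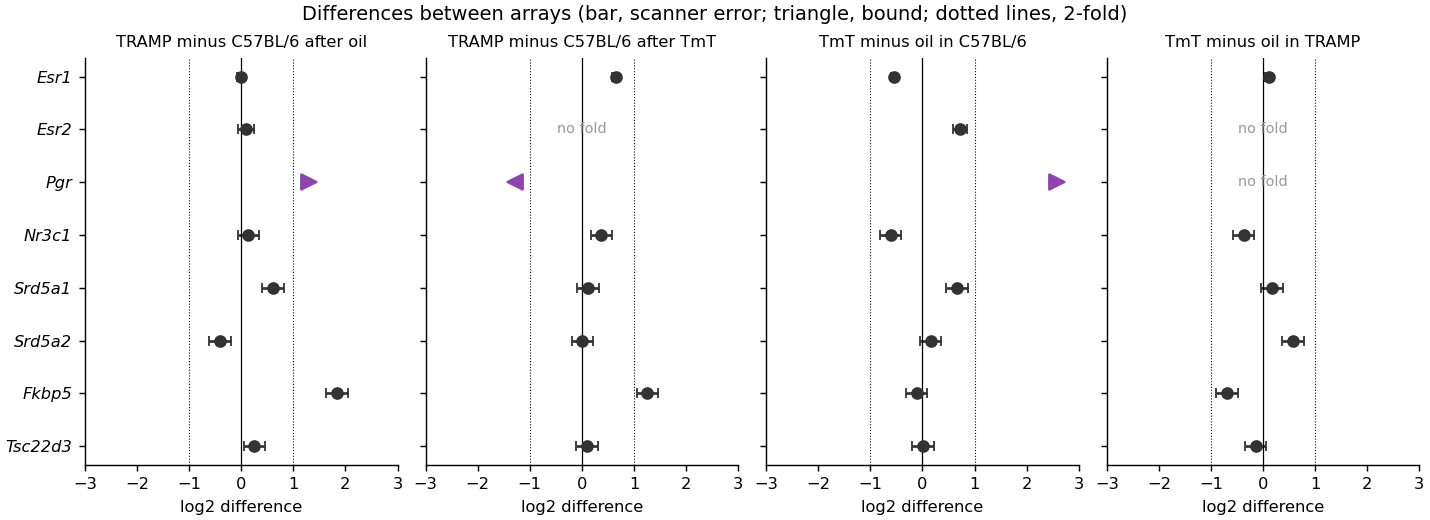
Log2 differences of the 8 genes in the 4 comparisons, from the brightest probe of each gene. Scanner errors are bars, bounds are triangles and dotted lines mark 2-fold. By these probes Fkbp5 passes 2-fold in both genotype comparisons (1.84 and 1.26) and no measured gene does so for TmT against oil. The Pgr bounds point to opposite sides in the genotype comparisons.

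Genotype and treatment were also fitted together across 19823 genes with limma, as an additive model on the 4 arrays whose 1 residual degree of freedom is the interaction. Fkbp5 had a fitted genotype difference of 1.55 ± 0.34 (SE), with a limma adjusted p of 0.157. Over the alternatives its adjusted p ran from 0.000121 to 0.824. The other 7 genes had limma adjusted p of 0.511 or above for genotype, and all 8 had 0.791 or above for treatment. No gene passed an adjusted p of 0.05 for either term, so percent called was 0. Without adjustment 2985 genes (15.1%) for genotype and 1236 (6.24%) for treatment had p under 0.05. Among the 8 genes this was 1 for genotype, Fkbp5, and 0 for treatment. The lowest adjusted p of the genotype term was 0.0503.

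Genes with a profile like that of Fkbp5 were sought by Euclidean distance between levels after subtracting each gene's mean. The search covered 11816 genes above background on all 4 arrays whose probe was of a RefSeq transcript with a gene symbol. The nearest were Fam111a at 0.117, Krt78 at 0.160 and Prim1 at 0.179, against a median distance of 1.82. Prim1, a DNA primase subunit, read -1.63, -1.73, 0.40 and -0.52 in the order C57BL/6 after oil, C57BL/6 after TmT, TRAMP after oil and TRAMP after TmT. With 4 arrays, likeness is a description of these values only.

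Relatives of the receptors and of the enzymes were taken from lists, and their counts are read against the shares of all genes past 2-fold. Those shares were 7.74% higher and 7.84% lower for genotype after oil, and 8.41% and 6.11% for genotype after TmT. For TmT against oil they were 3.15% and 2.63% in C57BL/6, and 8.67% and 4.86% in TRAMP. Nr3c2, the mineralocorticoid receptor, read -0.20, 0.24, -0.18 and 0.09 on C57BL/6 after oil, C57BL/6 after TmT, TRAMP after oil and TRAMP after TmT. In a list of 17 other steroid-binding receptors and nuclear receptor relatives, 14 were measured in each comparison. After oil, 2 were at least 2-fold higher in TRAMP and 1 lower: the orphan receptor Nr2c2 was 1.19 ± 0.20 higher, Paqr8, a membrane progestin receptor, 1.09 ± 0.21 higher, and Gper1, the membrane estrogen receptor, 1.28 lower (-1.28 ± 0.26). After TmT, Nr2c2 (1.05 ± 0.20) and Paqr3 (1.29 ± 0.21) were higher and none lower. Gper1 was 1.85 ± 0.27 higher after TmT than after oil in TRAMP, the only 2-fold difference of the list there, and C57BL/6 had none.

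Among 45 enzymes of steroid synthesis and turnover on the array, 26 to 32 were measured. Srd5a3, the third 5 alpha-reductase family member, read -0.36, -0.72, -0.92 and -0.80, and Hsd11b1, which regenerates active glucocorticoid, -0.63, -0.73, -0.98 and -0.92, in the order used above. Akr1b7, an aldo-keto reductase, covered the widest range: 4.78, 6.05, 1.03 and 5.23. It was 3.74 lower in TRAMP than in C57BL/6 after oil (-3.74 ± 0.20), and TmT arrays were above oil arrays by 1.27 in C57BL/6 and 4.20 in TRAMP. Akr1c12, a hydroxysteroid dehydrogenase relative, was 1.96 ± 0.20 higher in TRAMP after oil, and in TRAMP its difference after TmT was -1.92. Por, the electron donor of microsomal cytochromes P450, read 1.34, 1.58, 2.42 and 3.14 in the same order. It was thus higher in TRAMP after oil as well as after TmT, where the difference was 1.56 ± 0.20. Of 31 enzymes measured after oil, 3 were at least 2-fold higher and 4 lower in TRAMP, against 7.74% and 7.84% of all genes. After TmT 1 of 26 was higher and 0 lower, against 8.41% and 6.11%. For TmT against oil 1 of 32 was higher and 0 lower in C57BL/6, against 3.15% and 2.63%, and 4 of 27 were higher and 2 lower in TRAMP, against 8.67% and 4.86%.

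Among the other receptor chaperones and cochaperones, the class to which Fkbp5 belongs, no gene was 2-fold higher in TRAMP, where 7.74% (oil) and 8.41% (TmT) of all genes were. Fkbp4, the closely related cochaperone FKBP52, differed between TRAMP and C57BL/6 by -0.17 ± 0.20 after oil and -0.58 ± 0.20 after TmT. Of 19 measured, 0 were at least 2-fold higher in TRAMP in either comparison and 1 was lower in each, Dnajb1 after oil (-1.20) and Bag1 after TmT (-1.12). For TmT against oil, 1 of 20 was lower in C57BL/6, again Dnajb1 (-1.17), and 0 of 18 differed in TRAMP. List medians were -0.21 and -0.16 for genotype after oil and after TmT, and -0.29 and -0.11 for TmT in C57BL/6 and TRAMP. Among 26 to 28 receptor coregulators the medians stayed within 0.19 of 0. Hexim1, an inhibitor of transcription elongation, had the largest difference of them, at 0.91, 2.91, 2.26 and 3.20 in the order used above, that is 2.01 ± 0.20 higher after TmT in C57BL/6.

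Glucocorticoid response genes other than Fkbp5 and Tsc22d3 were counted in the same way. Of 28 measured, 0 were higher and 3 lower after oil (median -0.17), and 0 were higher and 5 lower after TmT (median -0.20). Among all genes 7.74% were higher and 7.84% lower after oil, and 8.41% and 6.11% after TmT. The metallothioneins Mt1 (-2.14 ± 0.07) and Mt2 (-1.89 ± 0.20) and the phosphatase gene Dusp1 (-1.72 ± 0.20) were the lower genes after oil. Pdk4 (-2.52), Angptl4 (-2.40) and Trim63 (-1.86) led after TmT. Sgk1, a kinase gene induced by corticosteroids, was 0.72 and 0.85 below C57BL/6 after oil and after TmT (-0.72 ± 0.20 and -0.85 ± 0.20), Per1 differed by 0.31 and -0.20, and Klf9 by 0.15 and 0.28. In C57BL/6 no gene of the list was 2-fold different between TmT and oil, and Per1 was 0.88 ± 0.21 higher. In TRAMP 3 were higher and 4 lower, against 8.67% and 4.86% of all genes, with Mt2 at 1.53, Angptl4 at -3.30 and Pdk4 at -2.06. Adipocyte markers had their median of -2.10 in that comparison, and their part was not tested.

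Androgen response genes of the prostate included the secretory genes Pbsn and Tgm4, both lower in TRAMP. After oil, 1 of 30 was at least 2-fold higher and 7 lower (median -0.34), and after TmT 2 of 28 were higher and 7 lower (median -0.38). The shares over all genes were 7.74% higher and 7.84% lower after oil, and 8.41% and 6.11% after TmT, with medians of -0.07 and 0.01. Pbsn, the probasin gene, read 7.06, 7.09, 4.11 and 5.06 in the order C57BL/6 after oil, C57BL/6 after TmT, TRAMP after oil and TRAMP after TmT. Tgm4, the prostate transglutaminase, read 8.01, 8.11, 3.90 and 6.54. Pbsn and Tgm4 were both higher after TmT in TRAMP, by 0.94 and 2.65, while the C57BL/6 arrays differed by 0.03 in Pbsn. The list as a whole did not share this rise in TRAMP, its median being -0.19 against 0.10 over all genes. There 4 of 28 were at least 2-fold higher and 2 lower, against 8.67% and 4.86% of all genes. Luminal epithelial markers had medians of -0.12 and -0.34 in the genotype comparisons after oil and after TmT.

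Estrogen and progesterone response genes, 21 of them measured in each comparison, had 1 gene at least 2-fold higher and 5 lower in TRAMP given oil (median -0.57). After TmT these counts were 1 and 2 (median 0.06). Over all genes 15.6% were 2-fold different after oil and 14.5% after TmT, so the count after TmT is at the background. Agr2, a disulfide isomerase induced by estrogen, was lower in TRAMP in both, by -2.51 ± 0.20 and -2.47 ± 0.20. Hand2, a uterine progesterone target, was lower after oil (-1.37 ± 0.24). For TmT against oil, 0 were higher and 1 lower in C57BL/6, the lactoferrin gene Ltf (-1.13 ± 0.21), and 3 were higher and 1 lower in TRAMP, with medians of -0.03 and 0.37. The fibroblast markers had medians of -0.74 for genotype after oil, 0.41 for genotype after TmT, -0.24 for TmT in C57BL/6 and 1.01 for TmT in TRAMP, and their part in these list medians was not tested.

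**Figure D5:**
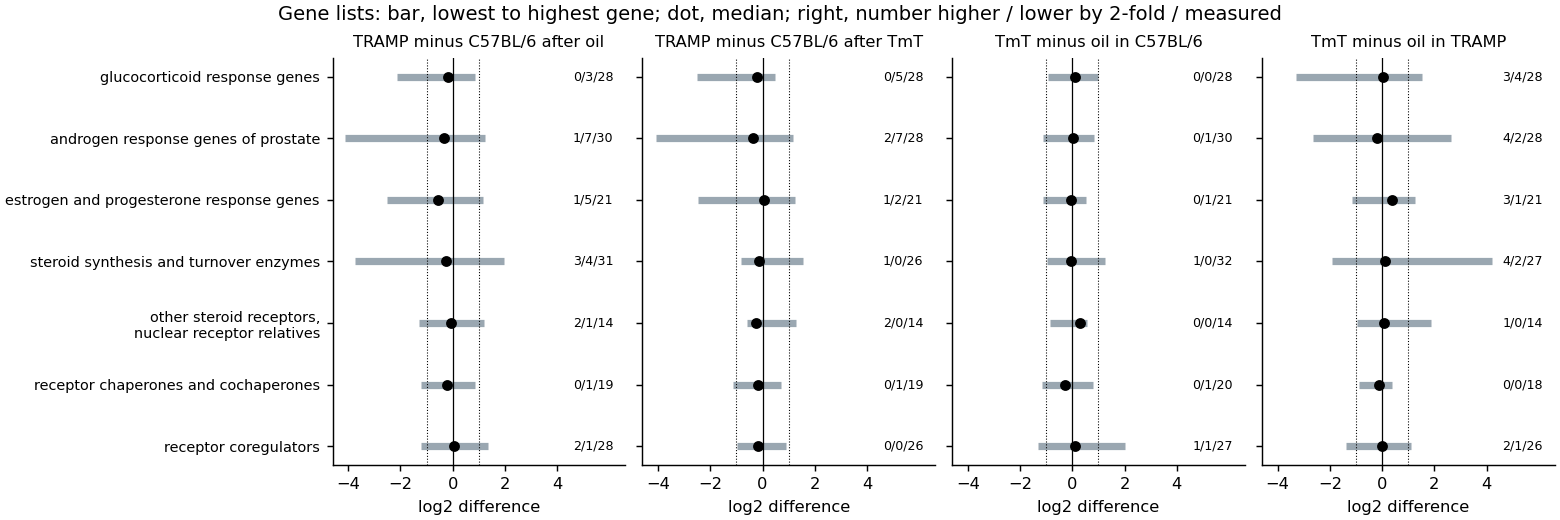
Log2 differences of 7 gene lists in the 4 comparisons. Bars run from the lowest to the highest gene measured, dots are list medians, dotted lines mark 2-fold, and the numbers at the right are genes at least 2-fold higher, lower and measured. The androgen response list has 7 lower genes in each genotype comparison, and the glucocorticoid response list has 0 higher genes there. Among all genes, 7.84% were lower and 7.74% higher after oil, and 6.11% and 8.41% after TmT.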

How the data were processed

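Cy3-labelled prostate RNA was hybridised to 4 arrays, 1 per group. Per the file headers, Agilent Feature Extraction 10.2.1.3 gave each spot a processed intensity, background-subtracted on all arrays and multiplicatively detrended on all but TRAMP after TmT; the deposited value table held the same linear intensity for all 45018 features. Control spots and outlier-marked spots were left out (131 to 348 per array), spots of a probe averaged, and intensities expressed as log2 minus log2 of each array's 75th percentile. Gene names are the array's, and 15 of 18 probes carried an accession that RefSeq (GRCm38.p6) pairs with the same gene. Coordinates are mm9 probe positions from the files. Exon and UTR annotation was not used here. A pair of arrays was compared over genes well above background on both, counting 2-fold differences, without a test. limma 3.58.1 (R 4.3.3, lmFit and eBayes, Benjamini-Hochberg, threshold 0.05) fitted genotype and treatment over genes above background on at least 2 arrays, and was tested on simulated data. Named genes were the 8 genes, 10 listed genes, at most 3 genes per list and comparison by size of difference past 2-fold, and the 3 nearest profiles of a gene spanning at least 1 log2 unit. Zbtb16, among the 10, was not analysed here, and 1 other of them is not reported here. The genes, lists and rules were chosen with earlier results of these data known. Among 174 probes printed 10 times, the median spot SD was 0.117 to 0.190 log2 units by array. The number of arrays limits the precision.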

Additional observations from a re-analysis of the deposited data

Results flagged for a closer look

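Pgr showed opposite genotype differences after oil and after TmT. By the nominal bounds it was at least 2.47-fold higher in TRAMP than in C57BL/6 after oil, and at least 2.42-fold lower after TmT. Each direction rests on 1 array per group, 1 spot per array and a value not above background on 1 side, and the difference between the treatments was not tested.

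Ltf, the lactoferrin gene of the estrogen response list, differed between TmT and oil by -1.13 in C57BL/6 and by 1.10 in TRAMP. Its levels were -0.48, -1.60, -1.47 and -0.37 on C57BL/6 after oil, C57BL/6 after TmT, TRAMP after oil and TRAMP after TmT. The difference between the lines was not tested.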

How the results depend on the processing

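No paired analysis was possible because each group has 1 array, and leaving out an array was not possible for the same reason. Differences were recomputed only where a gene was measured on both arrays, so the Pgr bounds were not. Of 208 such recomputed values, 155 moved by less than their scanner error. Those past 2-fold were the genotype differences of Fkbp5, which kept their direction. They ran from 1.06 to 1.98 after oil and from 0.015 to 1.36 after TmT. The planned normexp correction broke down on both TmT arrays, where 16 and 9 spots had a local background over 10 times the median, up to 137411 and 659409: its 25th and 75th percentiles were 684 and 708 in C57BL/6 and 942 and 945 in TRAMP. A variant with each array's median background, and scaling to the 75th percentile of unmarked spots, were added after seeing the data.

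In the order genotype after oil, genotype after TmT, TmT in C57BL/6 and TmT in TRAMP, the counts of the 8 genes past 2-fold were 1, 1, 0 and 0. They became 1, 0, 4 and 4 with the planned normexp, 2, 3, 1 and 1 without the background filter. For genotype after TmT the count was 0 with the mean of all probes, the 3-fold threshold or the added normexp. Over all genes, counts of 2944, 2511, 1082 and 2358 became 1133, 970, 10733 and 9432 with the planned normexp and 1143, 786, 191 and 943 with the added one. They were 5734, 5387, 3251 and 6269 without the filter and 990, 649, 215 and 594 at 3-fold.

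The limma genotype term made 0 calls. It made 95 after median centring, 5 on the signal before multiplicative detrending, 36 without the filter, 265 over genes above background on all 4 arrays and 1339 with the added normexp, whose prior took infinite degrees of freedom. The treatment term went from 0 to 14745 with the planned normexp, 2 before detrending and 333 with the added normexp. Fkbp5 passed the genotype threshold only with the added normexp (1.23, limma adjusted p 0.000121). Fitted values that changed sign were, for genotype, Esr2 (0.10 and 0.23) and Pgr (0.19 and 0.15) with the planned and added normexp, and Nr3c1 (-0.057) and Tsc22d3 (-0.18) with the planned one. For treatment they were Esr2 (1.67 and 0.42) with both, Pgr before detrending (-5.75), and Nr3c1 (0.13) and Srd5a1 (-0.42) with the mean of all probes. The causes were not tested, other than the breakdown named above.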
